A study of Homo sapiens with 12 samples.

Results

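HepG2 cells, an established human liver tumour line, secrete much of what a hepatocyte puts into blood plasma, and 20 genes of that output are described here. The genes were taken by symbol, as those that start with SERPIN, apolipoprotein genes of the A to F, H, L and M series, and the carriers ALB, AFP, AFM, GC, TTR, TF, RBP4, ORM1, ORM2 and A2M. The rule found 20 of the 14884 named genes: 12 apolipoprotein genes and 8 carrier genes. No serpin carried a symbol in the annotation of the array used here, nor did an APOL gene, APOC2, APOC4, GC or RBP4, so these were not analysed here and the set is one of apolipoproteins and carriers. In HepG2 cells 1 allele of the β-catenin gene lacks exon 3, which encodes the phosphorylation sites that set the protein's turnover, so every group started with both a truncated, abundant form and the full-length form. RNA was taken at 120 h after cells received an siRNA against the full-length form (sißCat-WT), the truncated form (sißCat-mut) or both forms (sißCat-both), or a control siRNA (siCtrl). Each group held 3 of the 12 Affymetrix arrays. The comparisons ask what each form contributes to expression in this line. An effect of an siRNA's own sequence on other transcripts cannot be told apart from loss of its target.

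Apolipoproteins are the protein part of plasma lipoproteins: they give the particles their structure, activate or restrain the enzymes that remodel them, and bind the receptors that clear them. Albumin and its relatives, transthyretin, transferrin and the orosomucoids carry hormones, fatty acids, vitamins, iron and drugs in plasma. Hepatocytes are the main source of most of them, and many of these genes depend on liver transcription factors such as HNF4. In the liver lobule, β-catenin signalling is high around the central vein and sets which hepatocytes carry which metabolic programme.

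Values are log2 intensities normalised by the authors, and the number of arrays limits their precision. The medians of all 53617 probe sets lay between 4.71 and 4.79, where signals near background are compressed, and the array maxima lay between 13.96 and 14.08. Across genes, which are no independent replicates, arrays of 1 group had a correlation of 0.994 to 0.997. Nothing in the labels ties the triplicates to separate cultures, so the p-values reflect the scatter of these arrays alone, and that scatter may be technical. The targeted gene itself was not analysed here, so the knockdowns were not checked on it. Of 15 measured Wnt targets, 12 fell and 1 rose after sißCat-mut, 11 fell and 1 rose after sißCat-both, and 3 fell and 2 rose after sißCat-WT, with median log2 changes of -1.996, -1.905 and -0.033. Among all genes 13.6% fell and 12% rose after sißCat-mut, 18.1% and 15.5% after sißCat-both, and 4.97% and 5.2% after sißCat-WT. The target that rose after sißCat-mut and sißCat-both was DKK4, with log2 changes of 1.78 and 3.62. Replicate 1 of sißCat-mut and of sißCat-both stood apart on some of the Wnt targets and not on others. LGR5 was at 8.17, 6.57 and 6.02 on the sißCat-mut arrays, 9.10, 7.79 and 7.79 on sißCat-both and 11.33, 11.41 and 11.49 on siCtrl, while RNF43 was at 7.09, 7.07 and 7.08, 7.56, 7.35 and 7.38, and 9.03, 9.06 and 9.14 on the same arrays. In bulk RNA, fewer cells of a type and less RNA per cell cannot be told apart.

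Knockdown of the truncated form was followed by higher levels of most of the 20 genes, knockdown of the full-length form by lower levels of a few, and knockdown of both forms by higher levels of most. Calls were made in limma where the p adjusted over all 14884 genes was under 0.05. After sißCat-WT 4 of 20 members fell and 0 rose, where 4.97% of all genes fell and 5.2% rose. After sißCat-mut 13 rose and 0 fell, where 12% of all genes rose and 13.6% fell. After sißCat-both 16 rose and 2 fell, where 15.5% of all genes rose and 18.1% fell. The median log2 change of the members was -0.07, 0.38 and 0.46 after sißCat-WT, sißCat-mut and sißCat-both, beside 0.005, 0.011 and -0.006 over all genes. These 3 comparisons share the siCtrl arrays. Without replicate 1 of sißCat-mut and sißCat-both, an alternative added after the data were seen, 12 members rose and 1 fell after sißCat-mut, and 14 rose and 2 fell after sißCat-both. The member lost after sißCat-mut was AFP and the one that fell was APOA5, and after sißCat-both AFP and APOB were lost. Called changes of at least 2-fold were made by 0 members after sißCat-WT, 4 after sißCat-mut and 3 after sißCat-both, all upward. Of all 14884 genes, 37 rose and 42 fell by as much after sißCat-WT. The counts over all genes were 181 and 127 after sißCat-mut, and 278 and 306 after sißCat-both.

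**Figure D1:**
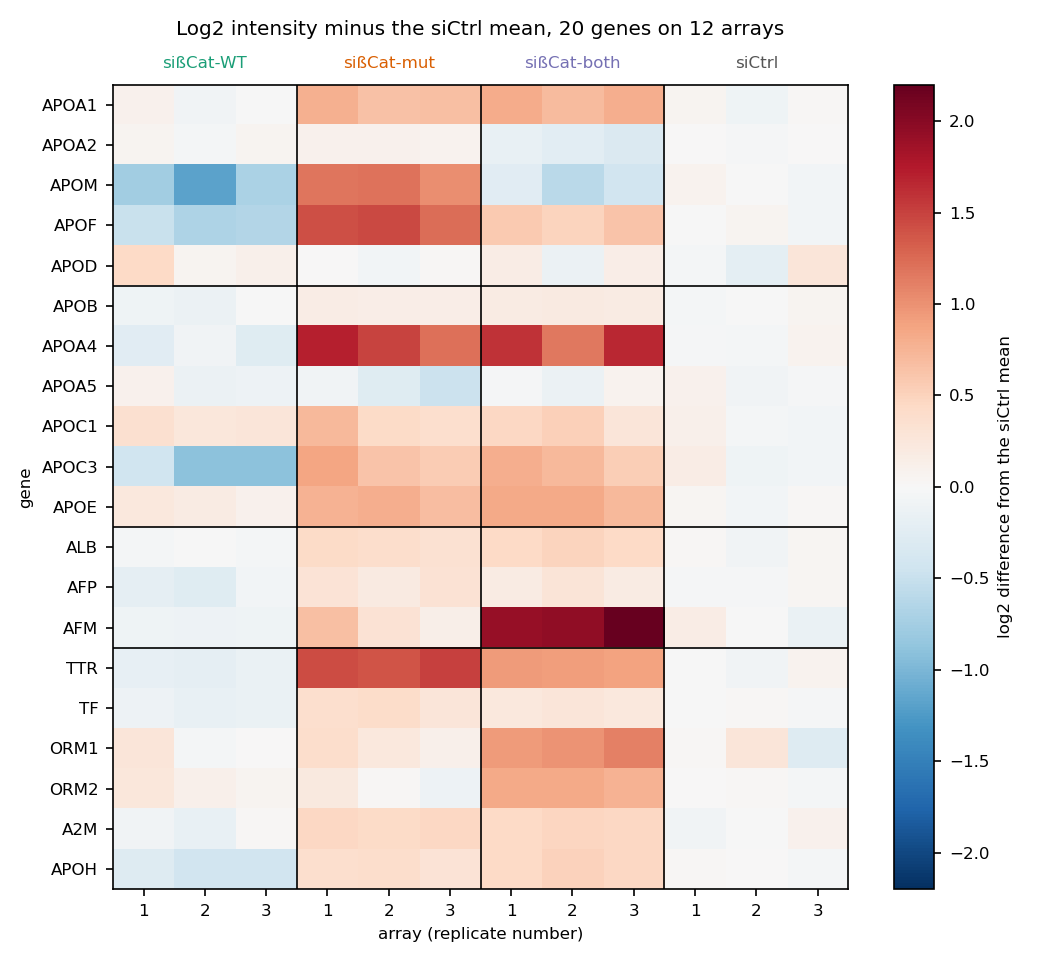
Each cell is the log2 intensity of a gene (rows, in 4 classes divided by lines: apolipoproteins mainly of high-density lipoprotein, apolipoproteins of triglyceride-rich lipoproteins and their exchange partners, the albumin family, other carriers) on an array (columns, 3 per group), minus the mean of the siCtrl arrays. Red is higher than siCtrl and blue is lower, and the sißCat-WT columns are blue for APOM, APOF, APOC3 and APOH while the sißCat-mut columns are red for these genes.

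**Figure D2:**
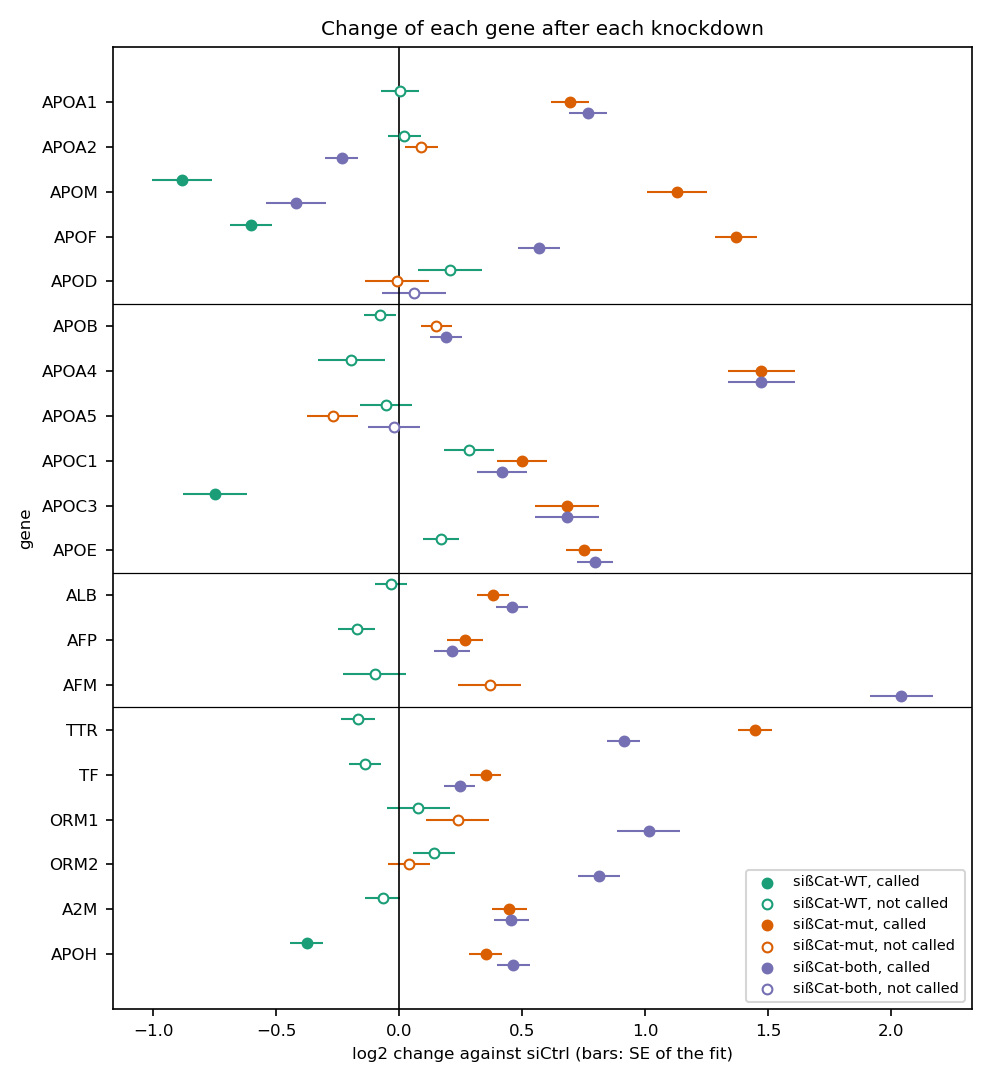
Points are log2 changes against siCtrl from the fit (x axis) for each gene (y axis) after each knockdown, with bars for the standard error; filled points passed an adjusted p under 0.05 and open points did not. After sißCat-mut 13 points are filled to the right of 0, after sißCat-both 16 are to the right and 2 to the left, and after sißCat-WT 4 are filled to the left.

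The stretches before the start sites of 5 members are shown because, of the 12 members with a promoter window in the RefSeq table (GRCh38.p14), these hold a close match to a motif of the liver factor HNF4, and their genes moved in different ways. The motif, CAAAGTCCA, was searched on both strands over the 250 bases before each start site, with up to 1 mismatch in its 9 letters. It was found in 5.94% of all 35116 windows and in 5 of the 16 windows of the members, some of which have more than 1 start site. Each line gives these 250 bases, 5′ to 3′ on the gene's strand, with the match in capitals.
APOM (chr6:31655644-31655893, plus strand): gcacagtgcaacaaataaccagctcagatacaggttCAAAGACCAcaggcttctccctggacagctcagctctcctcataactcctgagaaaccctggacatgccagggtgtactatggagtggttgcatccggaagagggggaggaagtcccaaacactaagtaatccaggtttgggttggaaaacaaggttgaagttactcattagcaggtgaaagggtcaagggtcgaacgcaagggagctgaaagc
APOA4 (chr11:116823305-116823554, minus strand): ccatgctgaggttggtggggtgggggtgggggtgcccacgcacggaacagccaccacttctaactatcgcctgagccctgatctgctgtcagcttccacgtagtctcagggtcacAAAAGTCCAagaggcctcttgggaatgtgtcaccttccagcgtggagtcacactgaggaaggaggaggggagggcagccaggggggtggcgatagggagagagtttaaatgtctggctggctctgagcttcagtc
APOE (chr19:44906151-44906400, plus strand): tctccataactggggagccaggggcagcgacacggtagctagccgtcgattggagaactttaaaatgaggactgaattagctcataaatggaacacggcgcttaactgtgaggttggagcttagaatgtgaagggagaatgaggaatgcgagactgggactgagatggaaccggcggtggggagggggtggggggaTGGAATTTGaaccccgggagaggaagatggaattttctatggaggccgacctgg
AFM (chr4:73481495-73481744, plus strand): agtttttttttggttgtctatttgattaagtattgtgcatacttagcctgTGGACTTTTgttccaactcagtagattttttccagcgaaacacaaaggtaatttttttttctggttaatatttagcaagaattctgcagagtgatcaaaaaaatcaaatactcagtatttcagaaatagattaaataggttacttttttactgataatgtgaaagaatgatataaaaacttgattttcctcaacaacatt
ORM1 (chr9:114322848-114323097, plus strand): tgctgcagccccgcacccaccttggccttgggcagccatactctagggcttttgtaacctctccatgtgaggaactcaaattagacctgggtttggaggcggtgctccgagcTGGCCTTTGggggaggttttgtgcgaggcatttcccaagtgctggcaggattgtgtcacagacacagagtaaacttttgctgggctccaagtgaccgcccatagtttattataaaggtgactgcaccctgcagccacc
The APOE window is the most downstream of 3 and lies after its other start sites. The APOM window likewise lies within the annotated span of its gene (chr6:31652404-31658210), not ahead of it. The match covers bases 54 to 46 before the start site in APOE, 135 to 127 in APOA4, 138 to 130 in ORM1, 200 to 192 in AFM and 214 to 206 in APOM. The TCF/LEF motif ATCAAAG, through which β-catenin's partner factors bind DNA, was found exactly in 0 of the 16 member windows and in 2.26% of all windows. TATAAA was found in 3 members with a window, AFM, AFP and ORM1, and in 10.7% of all windows. These matches are letters only and overlap with each other was not removed.

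APOM and APOF, minor apolipoproteins of plasma particles, moved in opposite directions after the single knockdowns. APOM carries sphingosine-1-phosphate on high-density lipoprotein. Its log2 levels were 9.49, 9.07 and 9.55 on the sißCat-WT arrays, 11.43, 11.45 and 11.27 on sißCat-mut, 10.01, 9.66 and 9.83 on sißCat-both and 10.33, 10.25 and 10.19 on siCtrl. The sißCat-mut arrays were the highest and the sißCat-WT arrays the lowest, and no group overlapped another. APOM fell by 0.88 on the log2 scale after sißCat-WT (1.85-fold lower, SE 0.12, n = 3 arrays in each group, limma adjusted p = 0.000435) and rose by 1.13 after sißCat-mut (2.19-fold, adjusted p = 1.42e-05). After sißCat-both it fell by 0.42 (adjusted p = 0.0156), a call lost without sißCat-both replicate 2 (adjusted p = 0.0715) or siCtrl replicate 1 (0.057). Of its 7 probe sets, 6 held the same values as each other, and the brightest was used. APOF restrains the transfer of cholesteryl esters between lipoproteins. Its levels were 6.46, 6.27 and 6.31 on the sißCat-WT arrays, 8.38, 8.41 and 8.17 on sißCat-mut, 7.53, 7.44 and 7.58 on sißCat-both and 6.95, 7.02 and 6.89 on siCtrl. All 4 groups were again apart, with sißCat-mut on top and sißCat-WT at the bottom, and sißCat-both lay above siCtrl. The log2 change of APOF was -0.60 ± 0.08 after sißCat-WT (with the SE; limma adjusted p = 0.00046), 1.37 ± 0.08 after sißCat-mut (1.38e-07) and 0.57 ± 0.08 after sißCat-both (0.000124).

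The main structural proteins of high-density lipoprotein are APOA1 and APOA2, and after sißCat-both APOA1 rose while APOA2 fell. APOA1, which activates the cholesterol-esterifying enzyme LCAT, stood at 9.43, 9.25 and 9.33 on the sißCat-WT arrays, 10.11, 9.98 and 9.99 on sißCat-mut, 10.15, 10.02 and 10.13 on sißCat-both and 9.40, 9.24 and 9.37 on siCtrl. Every sißCat-mut and sißCat-both array was above every sißCat-WT and siCtrl array. APOA1 rose 1.62-fold after sißCat-mut and 1.7-fold after sißCat-both (log2 changes of 0.69 ± 0.08 and 0.77 ± 0.08 with the SE; limma, adjusted p = 1.85e-05 and 4.1e-06). After sißCat-WT its log2 change was 0.00 ± 0.08, with a 95% interval of -0.17 to 0.17. APOA2 levels were 13.30, 13.20 and 13.31 on the sißCat-WT arrays, 13.34, 13.34 and 13.34 on sißCat-mut, 13.09, 13.02 and 12.94 on sißCat-both and 13.26, 13.22 and 13.27 on siCtrl, near the top of the range the arrays hold. The sißCat-both arrays lay below all others. APOA2 fell by 0.23 on the log2 scale after sißCat-both (limma adjusted p = 0.015), a call lost without sißCat-both replicate 3 (adjusted p = 0.0611). After sißCat-mut and sißCat-WT its log2 changes were 0.09 ± 0.07 and 0.02 ± 0.07 (adjusted p = 0.408 and 0.918). APOD, a lipocalin that binds arachidonic acid and progesterone, stood between 4.25 and 4.91 on all arrays, close to background, and was not called in any of the 7 comparisons.

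Among the apolipoproteins of triglyceride-rich particles and those that exchange with them, APOC3 was the 1 member called lower after sißCat-WT. APOC3 inhibits lipoprotein lipase and slows the clearance of remnants. Its levels were 10.29, 9.82 and 9.82 on the sißCat-WT arrays, 11.59, 11.35 and 11.28 on sißCat-mut, 11.52, 11.44 and 11.27 on sißCat-both and 10.89, 10.63 and 10.67 on siCtrl. All sißCat-WT arrays were below siCtrl, with replicate 1 nearest, and all sißCat-mut and sißCat-both arrays were above it. APOC3 fell by 0.75 on the log2 scale after sißCat-WT (1.68-fold lower, SE 0.13, n = 3 arrays in each group, limma adjusted p = 0.00212). It rose by 0.68 after sißCat-mut and by 0.68 after sißCat-both (adjusted p = 0.00142 and 0.000942). APOA4, made mainly in the intestine in humans and a chylomicron component, made the class's largest change. Its levels were 6.68, 6.87 and 6.67 on the sißCat-WT arrays, 8.65, 8.42 and 8.15 on sißCat-mut, 8.53, 8.10 and 8.60 on sißCat-both and 6.90, 6.90 and 7.01 on siCtrl. The arrays of both groups with the truncated form knocked down lay between 8.10 and 8.65 and did not overlap with the others. APOA4 rose 2.77-fold after sißCat-mut and 2.77-fold after sißCat-both (limma adjusted p = 3.71e-06 and 2.08e-06), and its log2 change after sißCat-WT was -0.20 ± 0.14 (adjusted p = 0.476).

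APOE and APOC1 are neighbours on chromosome 19. APOE, the ligand through which remnants bind hepatic receptors, stood at 6.39, 6.33 and 6.25 on the sißCat-WT arrays, 6.93, 6.96 and 6.83 on sißCat-mut, 6.99, 6.98 and 6.87 on sißCat-both and 6.19, 6.09 and 6.18 on siCtrl. Arrays with the truncated form knocked down were all above the rest, and the sißCat-WT arrays were all above siCtrl. APOE rose 1.68-fold after sißCat-mut and 1.73-fold after sißCat-both (limma adjusted p = 5.45e-06 and 1.91e-06), while its log2 change of 0.17 ± 0.07 after sißCat-WT did not pass the test (adjusted p = 0.19). APOC1, which inhibits cholesteryl ester transfer and lipoprotein lipase, had levels of 10.65, 10.55 and 10.57 on the sißCat-WT arrays, 11.03, 10.72 and 10.67 on sißCat-mut, 10.77, 10.83 and 10.58 on sißCat-both and 10.42, 10.26 and 10.24 on siCtrl. Every knockdown array was above every siCtrl array. APOC1 rose by 0.50 after sißCat-mut and by 0.42 after sißCat-both on the log2 scale (limma adjusted p = 0.00222 and 0.00543). After sißCat-WT its log2 change was 0.28 ± 0.10 (adjusted p = 0.108), and it was called with the replicate number as a block (adjusted p = 0.0492), with only the groups compared (0.0467), with a trended prior (0.0454) and with array weights (0.0443).

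APOB, the non-exchangeable protein of very-low-density and low-density lipoprotein, stood at 13.15, 13.13 and 13.23 on the sißCat-WT arrays, 13.41, 13.40 and 13.39 on sißCat-mut, 13.43, 13.45 and 13.44 on sißCat-both and 13.21, 13.24 and 13.31 on siCtrl. The sißCat-mut and sißCat-both arrays lay above the others by a small margin, near the top of the arrays' range. Its log2 change was 0.19 ± 0.06 after sißCat-both (limma adjusted p = 0.0367), 0.15 ± 0.06 after sißCat-mut (0.114) and -0.08 ± 0.06 after sißCat-WT (0.552). The call after sißCat-both was lost without siCtrl replicate 1 or 2 or any 1 sißCat-both array (adjusted p = 0.0562 to 0.12), with median centring (0.0901) and with only the groups compared (0.0891). After sißCat-mut APOB passed with renewed quantile normalization (adjusted p = 0.0489) and a trended prior (0.00984). APOA5, which promotes lipolysis by lipoprotein lipase, was not called in any of the 7 comparisons. Its levels were 9.30, 9.08 and 9.09 on the sißCat-WT arrays, 9.13, 8.95 and 8.73 on sißCat-mut, 9.19, 9.08 and 9.29 on sißCat-both and 9.30, 9.14 and 9.19 on siCtrl, and all sißCat-mut arrays were below all siCtrl arrays. The log2 change of -0.27 ± 0.10 after sißCat-mut missed the threshold (adjusted p = 0.0764) and passed it without sißCat-mut replicate 1 (adjusted p = 0.0217).

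**Figure D3:**
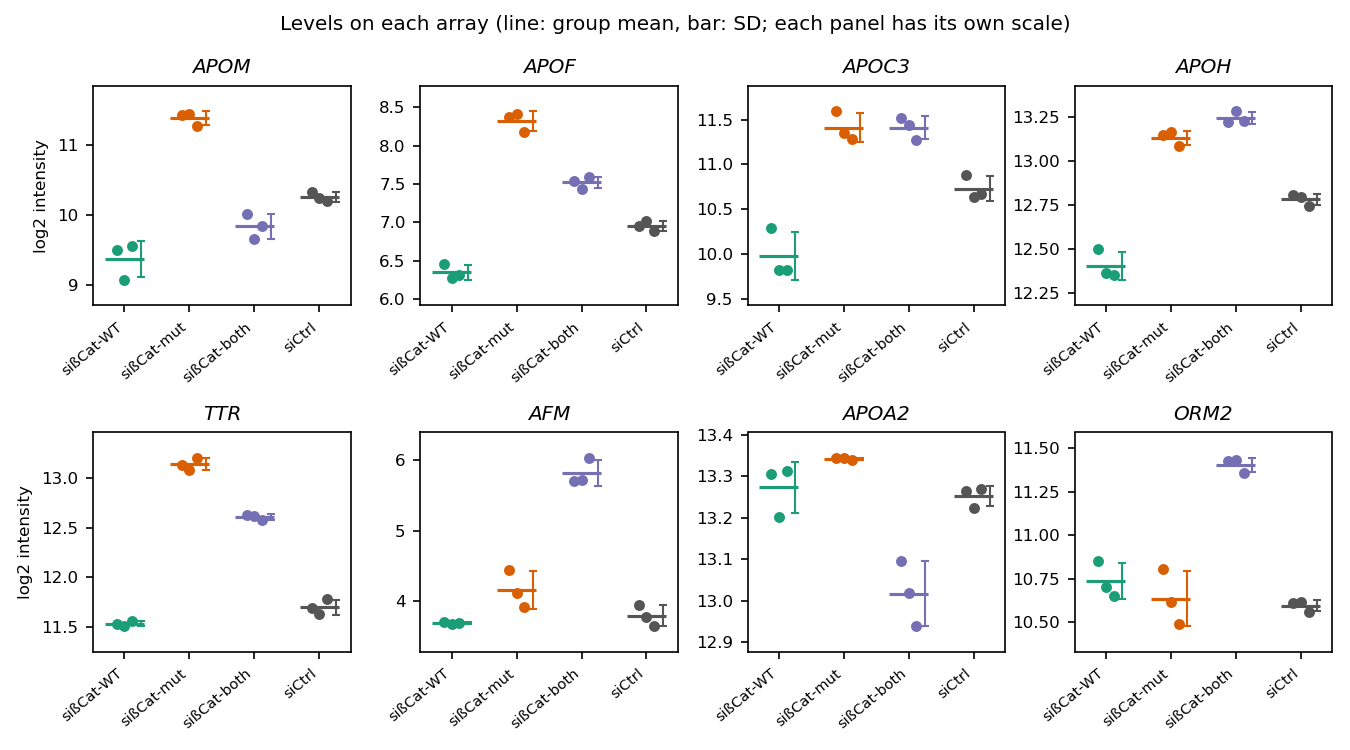
Points are the log2 intensities of 8 genes on the 3 arrays of each group (y axis, a separate scale in each panel), with a line at the group mean and a bar for the SD. APOM, APOF, APOC3 and APOH are lowest on the sißCat-WT arrays, TTR is highest on sißCat-mut, AFM and ORM2 are highest on sißCat-both, and APOA2 is lowest on sißCat-both.

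All 3 members of the albumin family, neighbours on chromosome 4, rose after knockdown of both forms. ALB, the main plasma protein, had levels of 13.02, 13.07 and 13.03 on the sißCat-WT arrays, 13.49, 13.46 and 13.41 on sißCat-mut, 13.51, 13.56 and 13.51 on sißCat-both and 13.10, 13.00 and 13.12 on siCtrl. The sißCat-mut and sißCat-both arrays were all above the others. ALB rose 1.3-fold after sißCat-mut and 1.37-fold after sißCat-both (3 arrays in each group; limma, adjusted p = 0.000587 and 8.65e-05), and its log2 change after sißCat-WT was -0.03 ± 0.07 (SE, adjusted p = 0.851). AFP, the fetal counterpart of albumin and a marker of liver tumours, stood at 12.59, 12.53 and 12.72 on the sißCat-WT arrays, 13.08, 12.98 and 13.10 on sißCat-mut, 12.96, 13.07 and 12.97 on sißCat-both and 12.76, 12.77 and 12.83 on siCtrl. The sißCat-WT arrays were the lowest and did not overlap with siCtrl. AFP rose by 0.27 after sißCat-mut and by 0.21 after sißCat-both on the log2 scale (limma adjusted p = 0.016 and 0.0376). The first call was lost without siCtrl replicate 1 or 2 or sißCat-mut replicate 1 or 3 (adjusted p = 0.0521 to 0.057), and the second without any 1 siCtrl array or sißCat-both replicate 2 or 3 (0.0554 to 0.12), with median centring (0.0737) and with only the groups compared (0.0632). After sißCat-WT the log2 change of AFP was -0.17 ± 0.07 (adjusted p = 0.18, and 0.0423 with a trended prior).

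AFM, whose product afamin binds vitamin E and Wnt proteins, was higher after the combined knockdown than after either single one. Its levels were 3.69, 3.67 and 3.69 on the sißCat-WT arrays, 4.44, 4.11 and 3.90 on sißCat-mut, 5.70, 5.73 and 6.04 on sißCat-both and 3.94, 3.77 and 3.64 on siCtrl. The sißCat-both arrays stood well above all others, which lay below the median of all probe sets, where changes are compressed. AFM rose by 2.04 on the log2 scale after sißCat-both (SE 0.13, limma adjusted p = 7.29e-08). Its log2 change after sißCat-mut was 0.37 ± 0.13 (adjusted p = 0.0511) and after sißCat-WT -0.10 ± 0.13 (adjusted p = 0.75). The change after sißCat-mut passed without sißCat-mut replicate 3 (adjusted p = 0.0151), siCtrl replicate 1 (0.04) or sißCat-both replicate 3 (0.036), and with array weights (0.0216).

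TTR, transthyretin, carries thyroxine and, through retinol-binding protein, retinol. Its levels were 11.53, 11.51 and 11.56 on the sißCat-WT arrays, 13.14, 13.09 and 13.21 on sißCat-mut, 12.63, 12.62 and 12.58 on sißCat-both and 11.69, 11.63 and 11.78 on siCtrl. The sißCat-mut arrays were the highest, the sißCat-both arrays lay between them and siCtrl, and the sißCat-WT arrays lay just below siCtrl. TTR rose 2.73-fold after sißCat-mut and 1.88-fold after sißCat-both (3 arrays in each group; limma, adjusted p = 1.35e-08 and 3.06e-07), and its log2 change after sißCat-WT was -0.17 ± 0.07 (SE, adjusted p = 0.161, and 0.0291 with a trended prior). TF, the iron carrier transferrin, had levels of 12.87, 12.81 and 12.84 on the sißCat-WT arrays, 13.36, 13.38 and 13.26 on sißCat-mut, 13.21, 13.25 and 13.21 on sißCat-both and 12.98, 13.01 and 12.96 on siCtrl. No group overlapped another, but the steps were small and near the top of the arrays' range. TF rose by 0.35 after sißCat-mut and 0.24 after sißCat-both on the log2 scale (limma adjusted p = 0.00111 and 0.00901), and had a log2 change of -0.14 ± 0.06 after sißCat-WT (adjusted p = 0.224, and 0.0336 with a trended prior).

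A2M, a trap for proteases of all classes, stood at 12.13, 12.05 and 12.24 on the sißCat-WT arrays, 12.67, 12.64 and 12.66 on sißCat-mut, 12.65, 12.68 and 12.66 on sißCat-both and 12.13, 12.20 and 12.30 on siCtrl. The sißCat-WT and siCtrl arrays overlapped, and the others were above them and close together. A2M rose 1.36-fold after sißCat-mut and 1.37-fold after sißCat-both (limma adjusted p = 0.000368 and 0.00019). APOH, β2-glycoprotein I, binds anionic phospholipids and was grouped here with the carriers. Its levels were 12.50, 12.36 and 12.35 on the sißCat-WT arrays, 13.14, 13.16 and 13.09 on sißCat-mut, 13.22, 13.28 and 13.23 on sißCat-both and 12.80, 12.79 and 12.74 on siCtrl. The sißCat-WT arrays were below siCtrl and all other knockdown arrays were above it. APOH fell by 0.38 on the log2 scale after sißCat-WT and rose by 0.35 and 0.46 after sißCat-mut and sißCat-both (3 arrays in each group; limma, adjusted p = 0.00264, 0.0015 and 0.000107).

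The orosomucoids ORM1 and ORM2, acute phase carriers of basic drugs, rose with both forms knocked down. They are near-identical neighbours on chromosome 9, so their probe sets may share signal and the single gene's value is uncertain. ORM1 levels were 7.55, 7.23 and 7.28 on the sißCat-WT arrays, 7.66, 7.50 and 7.38 on sißCat-mut, 8.22, 8.27 and 8.38 on sißCat-both and 7.30, 7.54 and 6.99 on siCtrl. The sißCat-both arrays were above all others, which overlapped. ORM2 levels were 10.85, 10.70 and 10.65 on the sißCat-WT arrays, 10.80, 10.61 and 10.49 on sißCat-mut, 11.43, 11.43 and 11.36 on sißCat-both and 10.61, 10.61 and 10.56 on siCtrl. The sißCat-both arrays were above all others, and the sißCat-WT arrays lay just above siCtrl. ORM1 and ORM2 rose by 1.01 and 0.81 on the log2 scale after sißCat-both (limma adjusted p = 3.34e-05 and 6.77e-06). After sißCat-mut their log2 changes were 0.24 ± 0.13 and 0.04 ± 0.09, and after sißCat-WT 0.08 ± 0.13 and 0.14 ± 0.09 (SE, adjusted p = 0.222, 0.806, 0.82 and 0.404).

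Set directly against each other, the single knockdowns left 14 of 20 members higher after sißCat-mut than after sißCat-WT and 0 lower, where 14% of all genes were higher and 17% lower. The largest differences were in APOM (4.03-fold), APOF (3.92-fold), APOA4 (3.18-fold), TTR (3.06-fold) and APOC3 (2.7-fold; limma adjusted p = 4e-08, 2.79e-09, 6.82e-07, 2.48e-09 and 1.77e-06). The 6 members that did not pass were APOA2, APOA5, APOC1, APOD, ORM1 and ORM2. The calls of APOB and AFM in this comparison were lost without sißCat-WT replicate 2 (adjusted p = 0.0566) and without sißCat-mut replicate 1 (0.0596), in that order. Between sißCat-both and sißCat-WT, 16 members were higher and 1 was lower, where 16.1% of all genes were higher and 20.1% lower. The lower member was APOA2, with a log2 difference of -0.26 (adjusted p = 0.00828), and APOA5, APOC1 and APOD did not pass.

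With both forms knocked down, APOM, APOF, TTR and APOA2 were lower and AFM, ORM1 and ORM2 were higher than with the truncated form alone knocked down. Of the 20 members 3 were thus higher and 4 lower in sißCat-both than in sißCat-mut cells, where 10.6% of all genes were higher and 11.6% lower. Of the 15 measured Wnt targets 3 were higher and 0 lower in the same comparison. An unequal loss of the truncated form in the 2 groups cannot be told apart here from loss of the full-length form. APOM was 2.93-fold lower, APOF 1.74-fold, TTR 1.45-fold and APOA2 1.25-fold (limma adjusted p = 2e-06, 1.7e-05, 8.41e-05 and 0.00346). AFM was higher by 1.67, ORM1 by 0.78 and ORM2 by 0.77 on the log2 scale (adjusted p = 1.72e-06, 0.000683 and 2.79e-05). The AFM level in sißCat-mut cells lay below the median of all probe sets, so the size of its difference depends on the background level. The 13 other members did not pass, and APOA5 passed without sißCat-mut replicate 1 (higher by 0.35, adjusted p = 0.0353). For APOA4, APOC3, APOA1, APOE and ALB the 95% intervals of the log2 difference were -0.29 to 0.29, -0.28 to 0.28, -0.09 to 0.24, -0.11 to 0.20 and -0.07 to 0.21.

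Whether the log2 changes of the single knockdowns sum to that of the combined one was tested as sißCat-both minus sißCat-WT minus sißCat-mut plus siCtrl. It departed from 0 upward in 5 members and downward in 3, where 7.6% of all genes departed upward and 8.79% downward. An unequal loss of the truncated form in the sißCat-mut and sißCat-both groups cannot be told apart from such a departure. Nor can an unequal loss of the full-length form in sißCat-WT and sißCat-both cells, or an effect of an siRNA's own sequence. APOC3 was 0.75 lower on the log2 scale after sißCat-WT than in siCtrl cells, but between sißCat-both and sißCat-mut cells its difference was -0.0004 ± 0.13, a departure of 0.75 ± 0.18 (with the SE; limma adjusted p = 0.013). APOH differed by -0.38 after sißCat-WT against siCtrl and 0.11 for sißCat-both against sißCat-mut (departure 0.49 ± 0.10, adjusted p = 0.0032). The difference in APOM was larger with the truncated form knocked down, at -1.55 for sißCat-both against sißCat-mut and -0.88 for sißCat-WT against siCtrl (departure -0.66 ± 0.17, adjusted p = 0.018). For APOF the corresponding values were -0.80 and -0.60, and the departure of -0.20 ± 0.12 did not pass (adjusted p = 0.324, 95% interval -0.45 to 0.06). AFM, ORM1 and ORM2 exceeded the sum by 1.77, 0.70 and 0.63 (adjusted p = 3e-05, 0.0184 and 0.00298), with AFM near background in 3 of the 4 groups, so that the size of its departure depends on the background level. TTR and APOA2 fell short of it by 0.37 and 0.34 (adjusted p = 0.0186 and 0.0253). Both calls were lost without siCtrl replicate 2 (adjusted p = 0.0565 and 0.0651), which left 1 downward departure in place of 3. That of APOA2 was also lost without sißCat-WT replicate 1 or 3, sißCat-both replicate 3 or sißCat-mut replicate 2 (adjusted p = 0.0505 to 0.0601).

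**Figure D4:**
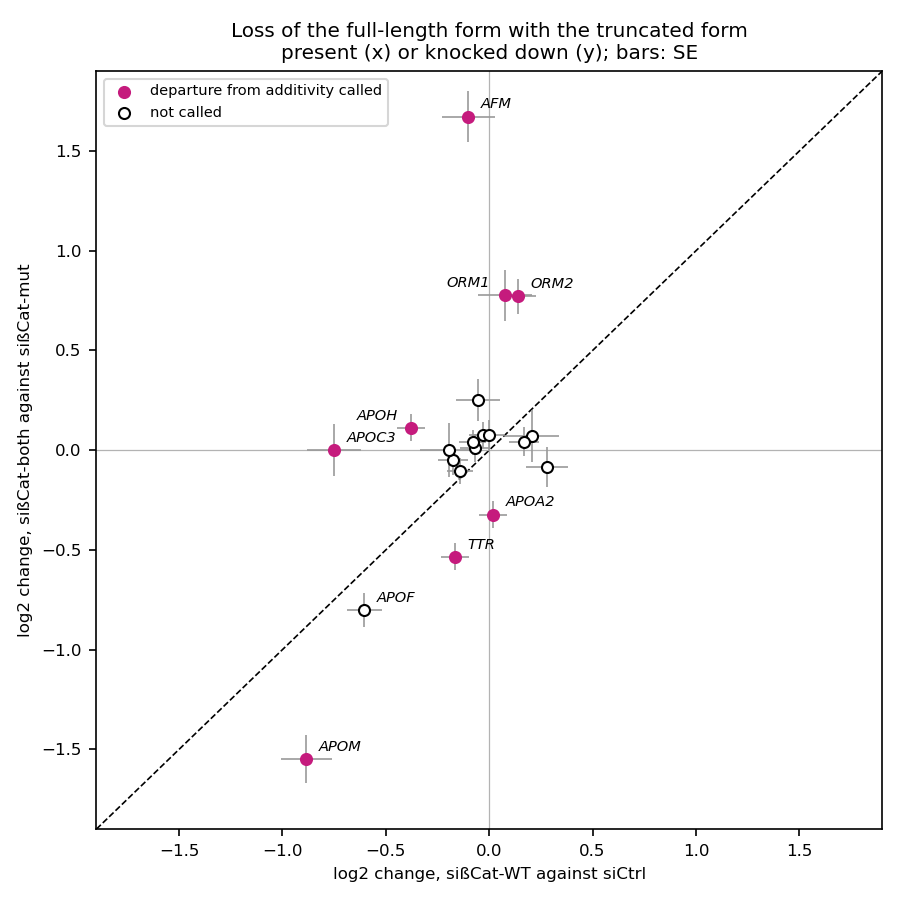
Each point is a gene, with the log2 change of sißCat-WT against siCtrl on the x axis and of sißCat-both against sißCat-mut on the y axis, 2 differences that share no array, and bars for the standard error; on the dashed line the single changes sum to the combined one. Filled points departed from the sum at an adjusted p under 0.05: AFM, ORM1, ORM2, APOC3 and APOH lie above the line, and APOM, TTR and APOA2 below it, while APOF lies near it.

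Members that lie next to each other in the genome had changes of unequal size, which were not tested against each other. In the RefSeq table of GRCh38.p14 no other protein-coding gene lies within the runs ALB, AFP, AFM (chromosome 4), APOA5, APOA4, APOC3, APOA1 (chromosome 11), APOE, APOC1 (chromosome 19) or ORM1, ORM2 (chromosome 9). In the chromosome 11 run, the log2 changes after sißCat-mut were 1.47 for APOA4, 0.69 for APOA1, 0.68 for APOC3 and -0.27 for APOA5, and after sißCat-WT APOC3 was the called member. In the chromosome 4 run, after sißCat-both the changes were 2.04 for AFM, 0.46 for ALB and 0.21 for AFP. Of the 16 nearest named protein-coding genes measured around the runs, 2 on each side, 0 were called after sißCat-WT, 3 rose and 3 fell after sißCat-mut, and 3 rose and 7 fell after sißCat-both. Among all genes 5.2% rose and 4.97% fell after sißCat-WT. These shares were 12% and 13.6% after sißCat-mut, and 15.5% and 18.1% after sißCat-both.

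Genes that build and secrete lipoproteins were taken from a list of 17, of which 11 were measured. After sißCat-WT 5 fell and 0 rose, with a median log2 change of -0.22 beside 0.005 over all genes. LCAT, the plasma enzyme that APOA1 activates, fell by 0.99, MTTP, which loads lipid onto APOB, by 0.97, the triglyceride synthase DGAT1 by 0.54 and CIDEB, which enlarges very-low-density lipoprotein particles, by 0.44 on the log2 scale (limma adjusted p = 6.5e-05, 2.02e-05, 0.00754 and 0.0369). After sißCat-mut 7 rose and 0 fell (median 0.63), led by CIDEB at 1.08, LCAT at 1.01, DGAT2 at 0.97 and TM6SF2 at 0.71, while MTTP stood at 0.01 ± 0.09 (adjusted p = 0.934). After sißCat-both 7 rose and 1 fell (median 0.34), with DGAT2 at 1.38, CIDEB at 1.22 and DGAT1 at -0.34. Over all genes 5.2% rose and 4.97% fell after sißCat-WT. The shares were 12% and 13.6% after sißCat-mut, and 15.5% and 18.1% after sißCat-both.

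**Figure D5:**
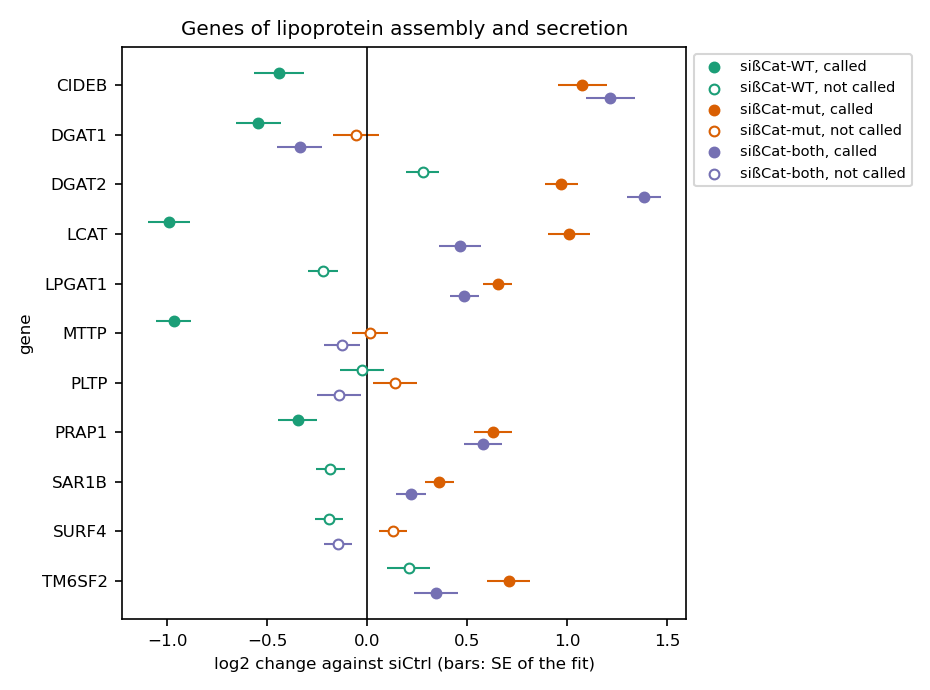
Points are log2 changes against siCtrl (x axis) of the 11 measured genes of lipoprotein assembly and secretion (y axis) after each knockdown, with bars for the standard error; filled points passed an adjusted p under 0.05. LCAT and MTTP lie near -1 after sißCat-WT, and LCAT lies on the other side of 0 after sißCat-mut.

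Of 11 measured genes of lipoprotein uptake and plasma lipases, 0 fell and 1 rose after sißCat-WT, 5 rose and 2 fell after sißCat-mut, and 2 rose and 2 fell after sißCat-both (median log2 changes 0.10, 0.12 and -0.005). PON1, an esterase that travels on high-density lipoprotein, rose on the log2 scale by 3.34 after sißCat-both and 1.65 after sißCat-mut, above a siCtrl level of 4.91 near background (limma adjusted p = 5.57e-09 and 4.14e-06). The receptor gene VLDLR rose on the log2 scale by 1.30 after sißCat-both and fell by 0.48 after sißCat-mut (adjusted p = 8.11e-06 and 0.022). Of 7 measured receptors and partners of plasma carriers, 0 rose and 2 fell after sißCat-WT, 1 rose and 1 fell after sißCat-mut, and 2 rose and 1 fell after sißCat-both. Among them TFR2, a receptor for transferrin in hepatocytes, fell on the log2 scale by 0.99 after sißCat-WT and rose by 1.32 and 1.20 after sißCat-mut and sißCat-both (adjusted p = 0.000125, 1.91e-06 and 2.41e-06). CUBN, an endocytic receptor that binds albumin and APOA1, fell by 1.03 after sißCat-WT and by 1.09 after sißCat-mut, and its log2 change after sißCat-both was 0.38 ± 0.19 (adjusted p = 0.00379, 0.000815 and 0.164). Its group means after sißCat-WT and sißCat-mut were 4.49 and 4.43, below the median of all probe sets. The size of these falls thus depends on the background level. Of 12 measured plasma and leukocyte proteases that serpins inhibit, 6 fell and 0 rose after sißCat-WT, 10 rose and 0 fell after sißCat-mut, and 7 rose and 0 fell after sißCat-both. PLG, plasminogen, had log2 changes of -1.66, 1.68 and 0.97 in that order, and the coagulation factor F11 of -1.24, 0.86 and 1.45, all called. Beside the counts of these lists, 5.2% of all genes rose and 4.97% fell after sißCat-WT. The shares were 12% and 13.6% after sißCat-mut, and 15.5% and 18.1% after sißCat-both.

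Of 10 measured hepatocyte transcription factors, 1 rose and 2 fell after sißCat-WT, 9 rose and 0 fell after sißCat-mut, and 6 rose and 0 fell after sißCat-both. Among all genes 5.2% rose and 4.97% fell after sißCat-WT. The shares were 12% and 13.6% after sißCat-mut, and 15.5% and 18.1% after sißCat-both. ONECUT1, a factor of liver and bile duct development, rose on the log2 scale by 1.80 and 2.15 after sißCat-mut and sißCat-both (limma adjusted p = 7.19e-09 and 5.54e-10). PPARA levels were 7.16, 6.98 and 7.02 on the sißCat-WT arrays and 7.69, 7.78 and 7.48 on siCtrl. They were 8.51, 8.61 and 8.51 on sißCat-mut and 9.02, 8.89 and 9.23 on sißCat-both. ZHX2 and ZBTB20, chosen after their values were seen and both known in mice as repressors of Afp, had log2 changes of -0.64 and 0.55 after sißCat-WT, 0.37 and 0.49 after sißCat-mut, and -0.03 and 0.95 after sißCat-both, all called but ZHX2 after sißCat-both (adjusted p = 0.867).

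Defining markers of the liver line were high in every group: of 10 measured hepatocyte markers outside the 20 genes, the lowest group mean was 7.36 (TAT after sißCat-WT) and the highest 13.09 (AHSG after sißCat-mut). Of these markers, which share FOXA1 and FOXA2 with the transcription factors, 6 fell after sißCat-WT, and 8 rose after sißCat-mut and 8 after sißCat-both. Their summed linear signal was 17160 to 19164 after sißCat-WT, 36635 to 39097 after sißCat-mut, 38649 to 39964 after sißCat-both and 24366 to 24983 in siCtrl cells. The fibroblast markers DCN and LUM had group means of 2.97 to 3.25, and none of the 2 was called against siCtrl. Their sum lay between 15.9 and 18.9 on all arrays. The 3 measured endothelial markers had group means of 3.51 to 4.76, and of these VWF rose after sißCat-mut and sißCat-both. Their sum was 48.2 to 57.3 after sißCat-WT, 58.2 to 68.6 after sißCat-mut, 59.7 to 67.8 after sißCat-both and 55.3 to 59.0 in siCtrl cells. Of 3 measured leukocyte markers LYZ was high, at 12.68 after sißCat-WT, 12.34 after sißCat-mut, 11.60 after sißCat-both and 12.72 in siCtrl cells. The summed linear signal of these 3 was 7441 to 7656, 6557 to 6936, 4114 to 5131 and 7681 to 7945 in the same order of groups. LYZ fell after sißCat-mut and sißCat-both, CD14 rose after sißCat-WT and sißCat-both, and CD68 rose after sißCat-mut. That of 4 cholangiocyte markers was 3005 to 3159 after sißCat-WT, 2194 to 2282 after sißCat-mut, 1711 to 1886 after sißCat-both and 3084 to 3169 in siCtrl cells. In that list EPCAM and SOX9 fell after sißCat-mut and sißCat-both, and EPCAM fell and KRT19 rose after sißCat-WT. The part of these markers in the changes of the 20 genes was not tested. Beside the marker counts, 5.2% of all genes rose and 4.97% fell after sißCat-WT. The shares were 12% and 13.6% after sißCat-mut, and 15.5% and 18.1% after sißCat-both.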

How the data were processed

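Per the labels' protocols, biotin-labelled cDNA from 12 HepG2 samples was hybridised to Affymetrix arrays. The submitters' processing notes name RMA and Affymetrix Expression Console 1.1 as the tools with which the authors made the deposited log2 intensities. RMA corrects background, gives arrays a common distribution and summarises probes. A change shared by most genes would not appear in such values. The build behind the probe sets is not given in the sources used here. Of 53617 probe sets, 16098 had 1 gene symbol in the platform annotation, 0 had several and 37519 had none and were left out. All 16098 gene identifiers matched the RefSeq table and 0 symbols changed. The brightest probe set stood for each gene, which left 14884 genes. The members and lists were chosen with earlier results of these data known.

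Groups follow the labels. From the log2 values, limma 3.58.1 in R 4.3.3 fitted the 4 group means (8 residual degrees of freedom, empirical Bayes, 13.3 in all at the median) and 7 comparisons, each adjusted over all genes by Benjamini-Hochberg and called at 0.05. Errors are standard errors of the fit unless given as SD, and intervals are 95%. All 20 members were in the fit, with no filter on low values. Values on every array were set for ALB, AFP, TTR, TF, APOA1, APOB, APOE, APOC3 and APOH and for up to 4 called members per class, and were given for the others except APOD too. Of other lists, up to 4 called genes with the largest changes were to be named. The fit was tested on simulated data. Alternatives were renewed quantile normalization, median centring, leaving out genes under the 40th percentile of mean level (5.34), averaging probe sets, trended and robust priors, a block for the replicate number, a fit of only the compared groups, array weights, and each array left out. No 2 arrays held identical values.

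Between sißCat-both and sißCat-WT the deviations of same-numbered arrays from their group means correlated at r = 0.115, 0.155 and 0.134. They were also positive, but partly weaker, for sißCat-WT and siCtrl (0.121, 0.004 and 0.189) and sißCat-mut and siCtrl (0.117, 0.038 and 0.083). The same held for sißCat-mut and sißCat-WT (0.095, 0.058 and 0.118) and sißCat-both and sißCat-mut (0.117, 0.008 and 0.108). For sißCat-both and siCtrl they were 0.001, -0.047 and 0.12. Arrays with different numbers correlated at -0.088 to -0.046 for sißCat-both and sißCat-WT. Such pairs ran over -0.155 to 0.154 for sißCat-both and siCtrl and -0.21 to 0.095 for sißCat-WT and siCtrl. Any pairing comes from the data alone, since the labels do not say what a number marks. Promoter windows were read from a RefSeq table for GRCh38.p14. The other values were computed with Python 3.11.15.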

Additional observations from a re-analysis of the deposited data

Results flagged for a closer look

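In 8 of the 20 genes the difference between sißCat-both and sißCat-mut was unlike that between sißCat-WT and siCtrl, by the interaction term of the fit (limma, Benjamini-Hochberg adjusted over 14884 genes, n = 3 arrays per group). On the log2 scale the interaction was 1.77 for AFM (adjusted p = 3e-05), 0.75 for APOC3 (0.013), 0.7 for ORM1 (0.0184), 0.63 for ORM2 (0.00298) and 0.49 for APOH (0.0032). It was -0.66 for APOM (0.018), -0.37 for TTR (0.0186) and -0.34 for APOA2 (0.0253). Of all genes 7.6% passed it upward and 8.79% downward. How far each form was lost in the knockdown groups was not checked. An unequal loss of either form, or an effect of an siRNA's own sequence, cannot be told apart from an interaction. AFM lay near background in all groups but sißCat-both, so the size of its interaction depends on the background level. The calls of TTR and APOA2 were lost without siCtrl replicate 2 (adjusted p = 0.0565 and 0.0651), and that of APOA2 also without any 1 of 4 other arrays (0.0505 to 0.0601).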

How the results depend on the processing

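Among the changes of the 20 genes in 7 comparisons, 81 were called, and 72 of these kept the call under all 22 other settings. The other 9 lost it under at least 1, and 0 called changes reversed. Among the 59 not called, 9 passed under at least 1 setting. After sißCat-WT, 1 member rose in place of 0 (APOC1) with a trended prior, with only the groups compared, with the replicate number as a block and with array weights, and 7 fell in place of 4 with a trended prior. After sißCat-mut, 1 member fell in place of 0 (APOA5) with median centring, without dim genes, with a trended prior, with the replicate block and without replicate 1 of sißCat-mut and sißCat-both. Without those 2 arrays 1 member was also lower in sißCat-mut than in sißCat-WT cells, in place of 0 (APOA5). The block changed no call of the 20 genes between sißCat-both and sißCat-WT (16 higher, 1 lower, and 5623 genes of all). There the correlations of same-numbered arrays were 0.115 to 0.155. In each of the other comparisons some of these correlations were lower.

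With 1 array left out at a time, the genes called after sißCat-WT numbered 917 to 1616 beside 1513, with 917 without sißCat-WT replicate 2, 957 without its replicate 3 and 950 without siCtrl replicate 2. The members that fell numbered 0 to 1 after sißCat-mut and 1 to 2 after sißCat-both, those lower in sißCat-mut than in sißCat-WT 0 to 1, and those below the sum of the single changes 1 to 3. Changes of sign were all in values that were not called. With 1 array left out, log2 changes after sißCat-WT ran over -0.0458 to 0.0428 for APOA1 and -0.0659 to 0.2078 for ORM1. After sißCat-mut they ran over -0.1213 to 0.1216 for APOD and -0.0449 to 0.1137 for ORM2, and after sißCat-both over -0.073 to 0.0303 for APOA5 and -0.0509 to 0.192 for APOD. Between sißCat-both and sißCat-WT, APOA5 ran over -0.0187 to 0.1051. Between sißCat-both and sißCat-mut, APOA4 ran over -0.1277 to 0.1539, APOC1 over -0.1513 to 0.0272 and APOC3 over -0.0641 to 0.0911. The departure of TF from the sum ran over -0.0025 to 0.0612. Median centring gave -0.0001 for APOA1 after sißCat-WT, and 0.0024 for APOA4 and 0.002 for APOC3 between sißCat-both and sißCat-mut. Renewed quantile normalization gave 0.0353 for APOA5 after sißCat-both and 0.0267 for APOA4 between sißCat-both and sißCat-mut. Array weights gave 0.0171 for APOD after sißCat-mut. Without replicate 1 of sißCat-mut and sißCat-both, ORM2 was at -0.0449 after sißCat-mut, and APOA4, APOC1 and APOC3 at 0.0623, 0.0051 and 0.0352 between sißCat-both and sißCat-mut. The causes of these shifts were not tested.

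AFM and APOD lie near background, where changes are compressed. ALB, APOA2, APOB and TF lie near the top of the arrays' range, and AFP, APOH and TTR come close to it in some groups. With 3 arrays per group, 1 cell line and 1 time point, precision and reach are limited.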
